A study of Equus caballus with 6 samples.

Results

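The genes described here make or sense prostaglandins. They are PTGS2, PTGDS and PTGER2, measured in leukocytes of 3 horses after and before exercise. They were found as the non-control probes whose identifier is a RefSeq transcript of one of these horse genes, which gave 11 of the 43603 probes of the array: 3 for PTGS2 (transcript NM_001081775), 2 for PTGDS (NM_001081868) and 6 for PTGER2 (NM_001127352). The genes were chosen by their signals after against before exercise, which were known from these arrays. The changes with exercise are therefore given as a description, with no test. The study sampled white blood cells of the buffy coat, the layer of leukocytes and platelets above the red cells in centrifuged blood. The 3 donors were healthy neutered male warmblood horses, numbered 1, 2 and 4. Each gave 1 sample after and 1 sample before exercise, so each group had 3 arrays and every horse serves as its own comparison. The sample labels give the ages as 11, 7 and 15 years for horses 1, 2 and 4, while the design text of the series gives a range of 9 to 17 years. The samples after exercise carry a time of 60 min, while the sampling protocol speaks of blood taken directly after exercise, so the interval is not settled here. No other treatment is named, and the kind of exercise is not given in the sources used here.

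Prostaglandins are short-lived lipid signals made from arachidonic acid. A phospholipase frees the fatty acid from the membrane, a cyclooxygenase (PTGS1 or PTGS2) turns it into prostaglandin H, and terminal synthases such as PTGDS turn that into the separate prostaglandins. PTGS2 is the inducible cyclooxygenase, the target of non-steroidal anti-inflammatory drugs, and in blood it is known from activated monocytes and neutrophils. PTGDS makes prostaglandin D and, as a lipocalin, also carries small lipophilic molecules. PTGER2 encodes EP2, a receptor for prostaglandin E that couples to cyclic AMP and dampens many leukocyte responses.

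Levels are given as the log2 of the processed signal of a probe minus the 75th percentile of its array, so that 0 is the level of a probe at that percentile. Levels of different probes are not compared with each other, since probes differ in how well they bind. Between 64.1% and 69.4% of the spots of an array were well above background, a mark set by the image software. No spot was saturated, and precision is limited by having 3 arrays in a group. Slide 2 carried the before-exercise arrays of horses 1 and 2, and slide 1 carried all others. The first column of the before-exercise array of horse 4 was dark: of its 226 odd-row spots, 215 did not reach the background mark, while 80 to 90 failed it on any other array. Kept probes are those that reached the mark on 3 or more of the 6 arrays. Of the 11 probes of the 3 genes, 9 were kept, and 1 of these, a PTGER2 probe, lies in the first column and is set apart.

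PTGS2 had its 2 highest signals in horses 1 and 2 before exercise. Its brighter probe (A_69_P000997) had levels of -1.54, -1.29 and -1.35 after exercise and of 0.07, 0.86 and -1.70 before exercise in horses 1, 2 and 4. The 3 levels after exercise lay close together, whereas those before exercise were spread widely, with horse 4 below all others, so the groups overlapped. Within horses, the log2 change was -1.61 in horse 1 and -2.16 in horse 2, a 3.06-fold and a 4.46-fold lower signal after exercise, and 0.36 in horse 4. The mean level was -1.39 ± 0.13 after and -0.26 ± 1.32 before exercise (SD, n = 3 each), a mean change of -1.14 (moderated SE of limma 0.61). Without horse 4 the mean change was -1.88, and without horse 2 it was -0.63. In units of the processed signal, that probe read 672, 917 and 441 after exercise and 1891, 4616 and 538 before exercise. The signal of this probe in horse 4 was thus lower after exercise until it was scaled: the 75th percentile of this horse's array was 1124 after and 1753 before exercise.

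A further PTGS2 probe agreed in direction, and the last one could not be read. The dimmer kept probe (A_69_P000996) had levels of -3.63, -2.90 and -2.34 after exercise and of -1.90, -1.29 and -3.19 before exercise. Its change was -1.73 in horse 1, -1.61 in horse 2 and 0.85 in horse 4, with a mean of -0.83 (SE 0.54). In horse 4 its processed signal was 221 after and 192 before exercise, so for this probe it was higher without scaling too. Both probes therefore placed horses 1 and 2 lower after exercise and horse 4 higher, but they did not move in step: the dimmer probe lay below the brighter one at differences of -2.09, -1.61 and -0.9959 (log2) after exercise and of -1.97, -2.15 and -1.49 before exercise. The SD of the change between these 2 probes was 0.22. Over 230 named genes with several kept probes outside the first column the median of that SD was 0.08 (quartiles 0.04 and 0.15). The third probe (A_69_P004631) was not well above background on any of the 6 arrays, with processed signals of 6.90, 17.4 and 13.8 after and 13.0, 24.7 and 9.64 before exercise.

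PTGDS, too, had its 2 highest levels in horses 1 and 2 before exercise. Its 1 measured probe (A_69_P000406) had levels of -4.05, -4.16 and -3.93 after exercise and of -2.83, -2.92 and -4.14 before exercise in horses 1, 2 and 4. All 3 levels after exercise and that of horse 4 before exercise lay within a narrow range, and only horses 1 and 2 before exercise stood above it. The change was -1.22 in horse 1 and -1.24 in horse 2, that is 2.32-fold and 2.37-fold lower, and 0.21 in horse 4. Mean levels were -4.05 ± 0.12 after and -3.30 ± 0.73 before exercise (SD, n = 3 each), and the mean change was -0.75 (SE 0.37). The processed signals were 118, 125 and 73.8 after exercise and 253, 335 and 99.4 before exercise. The other PTGDS probe (A_69_P001906) was not well above background on any array, so the gene rests on 1 probe. Background correction with normexp used the median spot signal and added an offset of 50, which is not small beside the signals of this probe. With it the changes of the measured probe were -0.65, -0.76 and 0.25, smaller in horses 1 and 2. The signs of PTGS2 and PTGDS in each horse were the same under normexp, quantile, array median and detected-probe scaling. All of these scale between arrays. Without scaling, the PTGDS signal of horse 4 was lower after exercise, at 73.8 against 99.4.

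**Figure D1:**
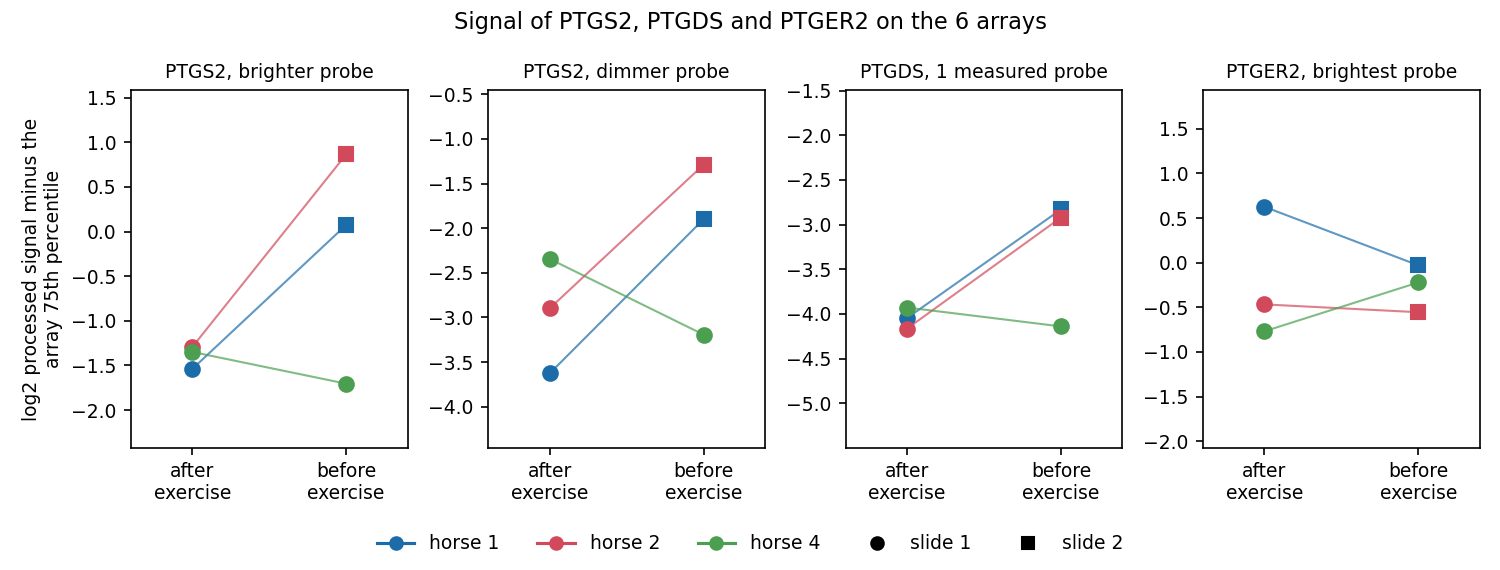
Levels (log2 processed signal minus the array's 75th percentile) of the 2 measured PTGS2 probes, the 1 measured PTGDS probe and the brightest PTGER2 probe, after and before exercise; lines join the arrays of 1 horse, and circles and squares mark slides 1 and 2. PTGS2 and PTGDS are high on the 2 arrays of slide 2, before exercise in horses 1 and 2, and the PTGER2 lines run in different directions.

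In PTGER2 the changes of the 3 horses went different ways. The brightest probe (A_69_P000892) had levels of 0.63, -0.47 and -0.77 after exercise and of -0.03, -0.55 and -0.22 before exercise. Horse 1 after exercise was the highest array and horse 4 after exercise the lowest, so that the levels after exercise enclosed those before. The change was 0.65 in horse 1, 0.09 in horse 2 and -0.55 in horse 4. Means were -0.20 ± 0.73 after and -0.27 ± 0.27 before exercise (SD, n = 3 each), with a mean change of 0.07 (SE 0.38). The processed signals of this probe were 3012, 1624 and 660 after exercise and 1761, 1726 and 1503 before exercise. In horse 2 its signal was thus lower after exercise until it was scaled.

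The probes of PTGER2 repeated each other closely. On each array its 4 bright probes outside the first column differed by an SD of 0.07 to 0.11 (log2). Their changes ran from 0.56 to 0.68 in horse 1, from 0.09 to 0.20 in horse 2 and from -0.55 to -0.43 in horse 4. The dimmer probe (A_69_P101276) had changes of 0.66, 0.41 and -0.63, with the same signs. Over these 5 probes the SD of the mean change was 0.05. The probes measure the same RNA extract on the same array, so they repeat the measurement and not the animal. The differences between horses in PTGER2 were thus larger than the spread between its probes, while 1 animal stands behind each change. With normexp 1 of these probes had a change of -0.05 in horse 2, and the other signs held under quantile, array median and detected-probe scaling.

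The sixth PTGER2 probe stood apart on 1 array, the one with the dark column. The probe in the first column (A_69_P000895) had levels of 0.53, -0.58 and -0.83 after exercise and of -0.27 and -0.68 in horses 1 and 2 before exercise, all within 0.11 of the mean of the 4 bright probes. In horse 4 before exercise its level was -8.08, with a processed signal of 6.48, which was not well above background. On the same array the 4 bright probes lay between -0.42 and -0.22, and this spot minus their mean gave -7.74 (log2). Its change in horse 4 was 7.25, against -0.63 to -0.43 for the other 5 probes, and its mean change was 2.72 (SE 1.98). The PTGER2 values given above leave this probe out.

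**Figure D2:**
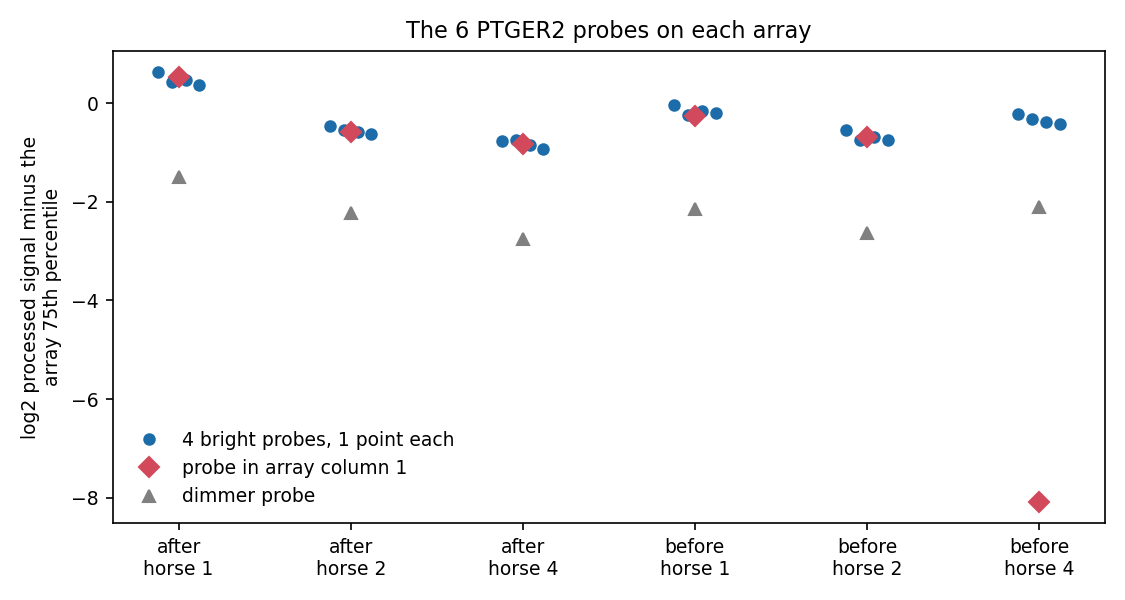
Level (log2 processed signal minus the array's 75th percentile) of the 6 PTGER2 probes on each of the 6 arrays, with blue circles for the 4 bright probes, grey triangles for the dimmer probe and red diamonds for the probe in the first column. The diamond lies within 0.11 of the circles' mean on 5 arrays and at -8.08 on the before-exercise array of horse 4.

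Local conditions on the arrays were read from the spots around each probe. Within 5 rows and 5 columns of the brighter PTGS2 spot, 75 other kept spots had a median change of -0.09 in horse 1, -0.02 in horse 2 and -0.06 in horse 4. Around the PTGDS spot, 45 spots had medians of -0.07, 0.18 and 0.18. Over all 9 kept probes the medians of the surrounding spots lay between -0.09 and 0.18. The errors that the image software assigned to the single spots of PTGS2 were 10.0% to 10.5% of the signal, and 10.3% to 12.4% for PTGDS.

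Slide moved with the high values of PTGS2 and PTGDS. Both genes were high on the 2 arrays of slide 2, and no array after exercise lay on that slide. Among the before-exercise arrays, the mean of horses 1 and 2 on slide 2 was above horse 4 on slide 1 by 2.17 (log2) for the brighter PTGS2 probe, by 1.60 for the dimmer one and by 1.26 for PTGDS. For the brightest PTGER2 probe that difference was -0.07. Within slide 1, the 3 arrays after exercise minus the 1 array before exercise gave 0.31 for PTGS2, 0.09 for PTGDS and 0.02 for PTGER2. In horses 1 and 2, exercise and slide cannot be told apart, and horse 4 is the only pair on 1 slide. Over all probes, limma with exercise and slide as terms called 349 of 29541 between slides (1.18%). That term sets the before-exercise arrays of horses 1 and 2 against the 1 of horse 4, the array with the dark column, so slide cannot be told apart from that animal and array. The parts of animal, slide and exercise in the high values of the 2 genes were not tested.

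Other probes were also lower after exercise in horses 1 and 2. Over the 29351 probes measured on all arrays, the changes of horses 1 and 2 had r = 0.60 with each other. These are the 2 pairs that span both slides. With the changes of horse 4, r was -0.10 for horse 1 and -0.12 for horse 2. Of the 9 kept probes of the 3 genes, 3 were lower after exercise by more than 1 (log2) in both horses 1 and 2, and so were 3.68% of the 29351 probes measured on all arrays. In 0 of the 9 probes did the groups not overlap, while 3.8% of all probes lay lower and 3.51% higher on every array after exercise than on every array before it. Since the genes were chosen with this contrast known, nothing is read from these shares. In horse 1, 1.96% of those probes had a lower change than the brighter PTGS2 probe, and in horse 2 1.76% did. For PTGDS the shares were 3.74% and 4.96%. In horse 4, 82.5% of probes had a lower change than PTGS2 and 71.4% a lower change than PTGDS. For the brightest PTGER2 probe, 95.9% of probes had a lower change in horse 1, 48.7% in horse 2 and 9.57% in horse 4. Across all tested probes, limma without the pairing called 0 of 29570 after against before exercise at an adjusted p under 0.05 (0%), and 855 had an unadjusted p under 0.05. With the horse as a block it also called 0, with 1798 at an unadjusted p under 0.05. The median change of all probes was 0.04.

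**Figure D3:**
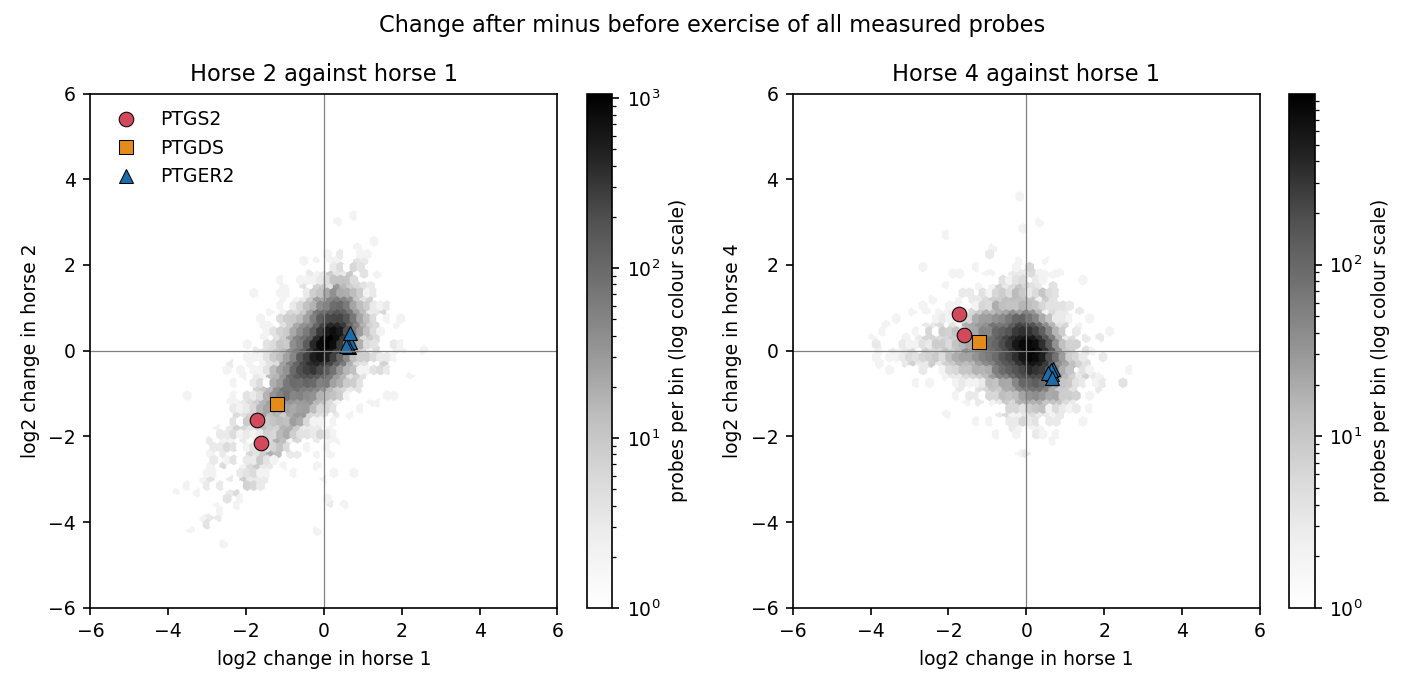
Log2 change after minus before exercise of 29351 probes in horse 1 (x axis) against horse 2 (left) or horse 4 (right), with grey bins shaded by the number of probes on a log scale and the 8 measured probes of the 3 genes outside the first column in colour. PTGS2 and PTGDS lie in the tail of probes lower in both horses 1 and 2 and near or above 0 in horse 4; 21 probes on the left and 91 on the right fall outside the axes.

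The 3 genes were then compared between animals, a contrast that did not enter their choice. With exercise in the model, limma's moderated F-test between horses called 70 of 29567 probes (0.237%), and 0 of the 9 kept probes of these genes. The brighter PTGS2 probe had mean levels of -0.73, -0.21 and -1.53 in horses 1, 2 and 4, a span of 1.31 (limma F-test, adjusted p = 0.51, unadjusted p = 0.23). PTGDS had means of -3.44, -3.54 and -4.03, a span of 0.60 (limma F-test, adjusted p = 0.65). PTGER2 was highest in horse 1, with means of 0.30, -0.51 and -0.49 and a span of 0.81 (limma F-test, adjusted p = 0.40, unadjusted p = 0.11). The dimmer PTGS2 probe had a span of 0.67 (limma F-test, adjusted p = 0.76). The low means of horse 4 in PTGS2 and PTGDS rest on the arrays before exercise, where horses 1 and 2 lay on slide 2. After exercise, with all arrays on slide 1, horse 4 had -1.35 against -1.54 and -1.29 in horses 1 and 2 for the brighter PTGS2 probe, and -3.93 against -4.05 and -4.16 for PTGDS. The span of PTGS2 was 0.52 without horse 4, without its array before exercise or with slide as a block, and 2.43 without its array after exercise. That of PTGDS was 0.10 without horse 4, 0.23 without its array before exercise or with slide as a block, and 1.32 without its array after exercise, and with normexp it was 0.185. With the array of horse 1 or 2 after exercise left out, the span of PTGDS was 0.95 or 0.86 and that of PTGS2 1.31 or 2.08. Without horse 2, or its array before exercise, PTGS2 had 0.79. PTGER2 had a span of 0.016 without horse 1, 0.37 without its array after exercise, and 1.25 without its array before exercise, without that of horse 4 before exercise or with slide as a block. Over the alternatives the adjusted p ran from 0.072 to 0.95 for PTGS2, from 0.085 to 0.97 for PTGDS and from 0.15 to 0.99 for PTGER2. With 2 arrays for each horse, the test recovered 0% of simulated shifts of 2 (log2) in 1 horse and 52% of shifts of 4. The simulated noise was each probe's spread within the exercise groups, which also holds differences between horses. These shares are therefore not the power of the test on these data. The lack of calls does not show that the horses were alike.

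Few other genes of the pathway could be followed. Of 51 further genes listed for prostanoid and leukotriene synthesis and signalling, 8 had a probe named here, and 5 were measured. Among these 5, limma called 0 higher and 0 lower after exercise, with a median change of 0.10 against 0.04 for all probes. PLA2G4A, the cytosolic phospholipase that frees arachidonic acid, had levels of 2.22, 2.29 and 2.54 after exercise and of 2.08, 2.25 and 2.17 before exercise, a mean change of 0.19 (SE 0.18). Its change was above 0 in all 3 horses, at 0.14, 0.04 and 0.37. PLA2G2A, a secreted phospholipase, had changes of -0.03, -0.13 and 0.44 in horses 1, 2 and 4, and PLA2G4B, a relative of PLA2G4A, of -0.08, 0.03 and 0.03. None of the 3 phospholipases had a change near that of PTGS2 in horses 1 and 2.

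Downstream of the cyclooxygenases, the other measured terminal synthase stayed near 0. PTGES3, a cytosolic prostaglandin E synthase also known as the HSP90 co-chaperone p23, had levels of 2.31, 2.07 and 2.59 after exercise and of 2.50, 1.89 and 2.29 before exercise. Its changes were -0.19, 0.18 and 0.29, with a mean of 0.10 (SE 0.24). PTGES, the inducible synthase of prostaglandin E, had 5 probes, and none was kept. HPGD, which inactivates prostaglandins, and PTGFR, the receptor for prostaglandin F, had 1 probe each, neither of which was kept. ALOX5AP, which presents arachidonic acid to 5-lipoxygenase for leukotriene synthesis, had changes of -0.03, 0.32 and 0.16 (mean 0.15, SE 0.23), and all 5 of its probes had a mean change above 0, from 0.13 to 0.32. The difference between PTGS2 or PTGDS and these genes was not tested.

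**Figure D4:**
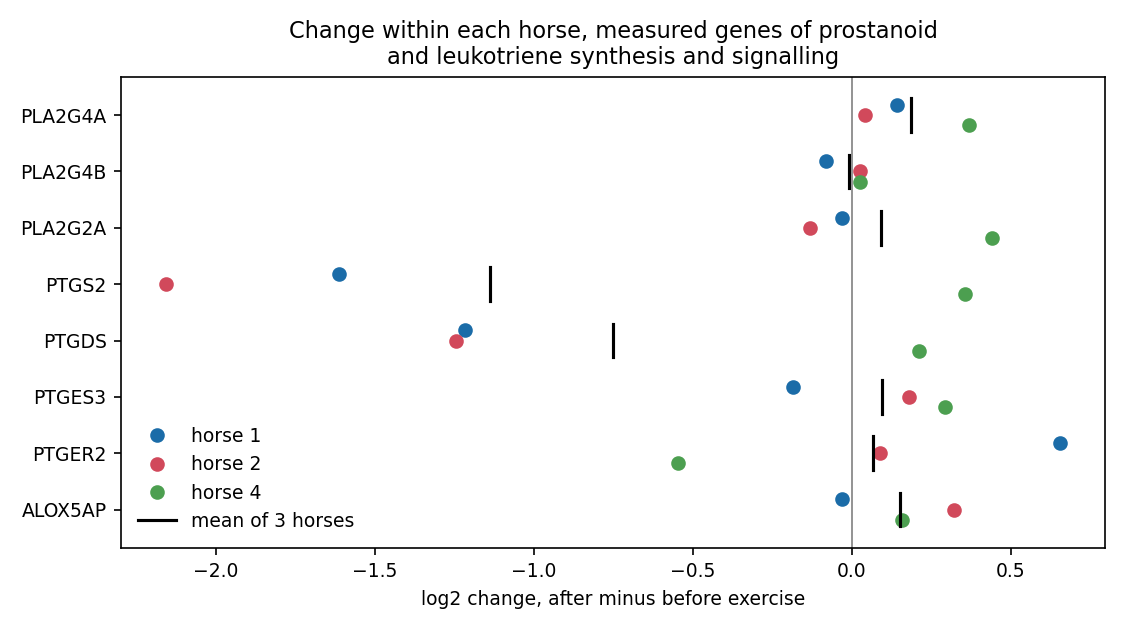
Log2 change after minus before exercise within horses 1, 2 and 4 (coloured points) and its mean (black bars) for the 8 measured genes of prostanoid and leukotriene synthesis and signalling, each by its brightest kept probe outside the first column. PTGS2 and PTGDS lie below -1 in horses 1 and 2, PTGER2 spans -0.55 to 0.65, and the points of the other 5 genes lie between -0.19 and 0.44.

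Genes that induce PTGS2, or are induced with it, are given beside it. Of 20 listed, 7 were measured, and 0 were called by limma after against before exercise. Their median change was 0.21. TNF, a cytokine that induces PTGS2, had changes of -0.64, -0.27 and 1.54 in horses 1, 2 and 4, and was the 1 gene of the 7 that was lower in horses 1 and 2 and higher in horse 4, an order of signs found in 19.5% of all probes. CXCL8, a neutrophil-attracting chemokine, had changes of 0.13, 0.07 and 0.35, with 6 probes of the same sign. TLR4, the receptor for endotoxin, had 0.32, 0.94 and -0.47, and its co-receptor CD14 had 0.79, 0.84 and -0.77. IL6, a cytokine, had the highest mean change of the 7, at 1.07, with 2.03, 0.28 and 0.90 in the horses. It was well above background on only 2 arrays after and 1 array before exercise. None of the 7 was lower by more than 1 (log2) in both horses 1 and 2, which held for 3.68% of all probes, and their difference from PTGS2 was not tested. Among listed genes of cyclic AMP signalling, through which PTGER2 acts, ADORA2A, an adenosine receptor, had changes of -0.53, -0.36 and 0.02, and its other probe had the opposite sign of mean change.

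Markers of the cells in the buffy coat are given beside these values. Fewer cells of a type and less RNA for each cell cannot be told apart in such samples. Of 85 listed markers in 8 lists, 26 were measured and limma called 0 after against before exercise. The 5 measured monocyte markers of 10 listed (CD14, CD68, CSF1R, TIMP1 and CCR2) had a median change of 0.49, 0.22 and 0.10 in horses 1, 2 and 4, with a summed linear level of 50.04 to 98.1 after and 33.2 to 82.5 before exercise. TIMP1 had the highest signal of the 5 on every array and so weighs most in that sum. In horse 4 these markers went different ways. CD14 had a change of -0.77 and CSF1R of -0.28, while CD68 had 0.48, TIMP1 0.45 and CCR2 0.10. The 3 measured neutrophil markers of 15 listed (LTF, MMP9 and FCAR) had medians of 0.15, 0.41 and 0.12, with sums of 18.1 to 23.9 after and 13.2 to 23.9 before exercise. They did not change alike. LTF had changes of 0.38, 2.25 and -1.16 in horses 1, 2 and 4, MMP9 of 0.15, 0.41 and 0.12, and FCAR of -0.09, 0.20 and 0.41. The sums are in multiples of each array's 75th percentile. The part of these cells in the PTGS2 values was not tested. The 3 measured T cell markers of 11 listed (CD2, CD28 and IL7R) had medians of 0.23, 0.75 and -0.47 and sums of 3.12 to 3.58 after and 2.12 to 5.26 before exercise. The 5 measured of 10 NK and cytotoxic cell markers had medians of 0.37, 0.46 and -0.48 and sums of 88.4 to 105.7 after and 59.8 to 133.2 before exercise. The medians of both lists had the signs of PTGER2 in each horse. Single genes departed from this, with IL7R at -0.06 and NCR1 at -0.44 in horse 1 and GNLY at 0.38 in horse 4. The monocyte markers CD14 (0.79, 0.84 and -0.77) and CSF1R (0.26, 0.22 and -0.28) had the signs of PTGER2 too. The part of any of these cells in the PTGER2 values was not tested. The 3 measured B cell markers of 9 listed had medians of -0.17, -0.20 and 0.29, with sums of 1.03 to 1.57 after and 0.89 to 1.67 before exercise. These medians had the signs of PTGS2 and PTGDS in each horse, an order found in 19.5% of all probes. PAX5 and FCER2 had these signs too, while TNFRSF13C was at -0.18 in horse 4. The part of B cells in the PTGS2 and PTGDS values was not tested. For eosinophils, basophils and mast cells, 3 of 12 were measured, with medians of -0.48, 0.20 and 0.57 and sums of 6.33 to 9.42 after and 4.05 to 12.6 before exercise. The 2 measured platelet markers of 9 had medians of 0.22, 0.29 and 0.24, with sums of 1.04 to 3.19 after and 0.65 to 2.94 before exercise. The 2 measured red cell genes of 9, HBB and HBA2, had medians of 0.91, 2.48 and 0.24, with sums of 27.1 to 486 after and 4.84 to 407 before exercise. All 26 measured markers were above background on every array.

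The named genes most like each of the 3 across the 6 arrays were sought among 549 others by Pearson's r of the level. The arrays come in pairs from 1 animal and share slides, so r describes these 6 arrays only. PTGS2 and PTGDS had r = 0.94 with each other, and PTGER2 had r = -0.23 with PTGS2 and -0.09 with PTGDS. Most like PTGS2 were RNF208, an E3 ubiquitin ligase gene (r = 0.989), KCNF1, a modulatory potassium channel subunit (0.987), and SULT1E1, the oestrogen sulfotransferase (0.980). KCNF1 had levels of -3.60, -3.62 and -3.46 after exercise and of -2.54, -2.22 and -3.93 before exercise, with the highest values on the same 2 arrays as PTGS2. Most like PTGDS were TMEM207, a membrane protein gene (0.995), SV2A, a synaptic vesicle protein (0.993), and HTR4, a serotonin receptor (0.992). SV2A had changes of -1.51, -1.24 and 0.24 in horses 1, 2 and 4. Most like PTGER2 were ARHGEF39, a guanine nucleotide exchange factor (0.933), ANG, the ribonuclease angiogenin (0.892), and GM2A, a lysosomal lipid-binding protein (0.881). GM2A had levels of 2.61, 0.80 and 1.12 after exercise and of 2.05, 0.37 and 1.43 before exercise, with horse 1 the highest in both groups.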

How the data were processed

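Total RNA was labelled with Cy3 and hybridised to 1 Agilent horse array for each of 6 samples. The deposited processed signal is an intensity, background-subtracted and detrended within the array by Feature Extraction 10.10.1.1 without normalization between arrays, per the file headers. The files hold no probe sequence, and none is printed. The log2 of this intensity was taken, and the 75th percentile over 43803 non-control spots of the array was subtracted. Left out were 1417 control spots and all outlier-flagged spots, and repeated spots of a probe were averaged. Of 43603 probes, 29571 were kept. Fits used limma 3.58.1 in R 4.3.3, two-sided, adjusted by Benjamini-Hochberg over all probes, and were tested on simulated data. Probes were named by RefSeq accession through a RefSeq gene table of the assembly TB-T2T. Each gene is represented by the kept probe outside the first column with the highest mean level. Horse numbers in the labels pair arrays of the same animal, and same-numbered arrays deviated together (r = 0.36, 0.40 and 0.23 for horses 1, 2 and 4). Pairs are shown within horses, and limma ran without the block. The members and lists were chosen with earlier results of these data known. By rule, the genes named were the 3 members, the measured prostanoid and leukotriene genes, and the 3 named genes most like each member. Inducer, cyclic AMP and marker genes named as examples were chosen after their values were seen. Normexp used the median spot signal, with the offset at 50. The result of 1 gene of the cyclic AMP list is not reported here.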

Additional observations from a re-analysis of the deposited data

How the results depend on the processing

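The mean change of PTGS2 was -1.14 and stayed below 0 in 21 of 23 alternatives, as did that of PTGDS (-0.75, 21 of 23). The exceptions were the fits within slide 1 and with slide as a block, which gave 0.31 for PTGS2 and 0.094 for PTGDS. These 2 fits give equal values by construction, since both then rest on the before-exercise array of horse 4. The 21 others had no slide term, so their shared sign does not separate exercise from slide. With 1 array or 1 horse left out, the change ran from -1.88 to -0.58 for PTGS2, from -1.23 to -0.50 for PTGDS and from -0.35 to 0.37 for PTGER2. PTGS2 had -1.88 without horse 4, -1.86 without its array before exercise, -0.63 without horse 2 and -0.58 without the array of horse 2 before exercise. PTGDS had -1.23 and -1.17 without horse 4 or that array, and -0.50 without horse 2. PTGER2 had -0.35 without the array of horse 1 after exercise, and 0.65 with array weights. With the replicate block (horse), the changes were unchanged and the SE were 0.53, 0.35 and 0.27 for PTGS2, PTGDS and PTGER2, and 0 probes were called.

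Probes called after against before exercise were 0, but 132 with slide as a block, 122 within slide 1, 1638 with array weights, 595 without the array of horse 4 before exercise and 20 without horse 4 (range 0 to 595 with a library left out). The counts with slide in the fit or within slide 1 rest on the before-exercise array of horse 4, which had the dark column. Most of those probes were higher after exercise, and exercise cannot be told apart from that array. With array weights, without that array and without horse 4, 1501, 582 and 20 probes were lower. Those fits had no slide term, so they do not separate exercise from slide. Probes called between horses were 70, but 1 with quantile normalization, flagged spots kept or slide as a block, 2 without a filter, 164 with trended and robust variance, 360 with array weights, and 0 to 456 with an array or horse left out: 0 without horse 1 or either of its arrays, 1 and 29 without the arrays before exercise of horses 4 and 2, and 456 without that of horse 4 after exercise. No member passed between horses in any of these. Probes called between slides were 349, and 169 to 380 with an array left out. Probes near background, such as 1 each of PTGS2 and PTGDS, gave no level.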
